A study of Mus musculus with 9 samples.

Results

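Dppa3 and 6 other factors of primordial germ cells, namely Prdm14, Prdm1, Tfap2c, Nanos3, Dnd1 and Kit, were followed across 9 RNA-seq libraries of naive mouse embryonic stem cells. All 7 genes were present among the 16636 genes of the deposited count table. Dppa3 was selected on a measured value, its difference in earlier results of these data between Stag3 siRNA and control siRNA. The other 6 genes were listed for their known function in germ cells, with presence in the table as the only measured condition. Earlier results of these data were known when they were listed. Because Dppa3 was selected on it, the difference between the siRNA groups is given below as a description for the 7 genes. Calls in it are counted only beside the share of all genes, and nothing is read from them.

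The cells were E14, an established mouse embryonic stem cell line, in wild-type form. They were grown in serum-free naive medium with leukaemia inhibitory factor at 1000 U per ml and with 2 inhibitors, 1 µM PD0325901 against MEK and 3 µM CHIR99021 against GSK3. One group was untreated, the second was treated for 48 h with siRNA against luciferase (siLuc), a gene that mouse cells lack, and the third for 48 h with siRNA against Stag3 (siStag3). Stag3 encodes a cohesin subunit known mainly from meiosis. Each group had 3 libraries, described as biological replicates. The siRNA was given at 50 pmol per transfection, and no mock transfection was analysed here. All groups shared the medium, so every comparison was made within naive culture of 1 cell line, and no library came from germ cells.

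Primordial germ cells are the precursors of eggs and sperm. In the mouse embryo a few epiblast cells take this fate in response to BMP4, and the transcription factors PRDM1 (BLIMP1), PRDM14 and TFAP2C (AP2γ) together repress somatic genes and restore pluripotency genes in them. Newly formed germ cells then switch on Dppa3 and Nanos3, and they depend on the RNA-binding proteins NANOS3 and DND1 and on the receptor KIT to survive and migrate. Naive embryonic stem cells express several of these genes without being germ cells, and DPPA3 protein is known to be present in only part of such cultures.

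Depth and identity of the libraries set the frame for these values. Between 29332436 and 44527534 counts were assigned per library, and 14246 genes had enough counts to be tested. Levels are read counts normalised to library size (CPM), scaled by the trimmed mean of M values (TMM). The column names of the table placed 2 libraries of each group in Set 1 and 1 in Set 3. In Set 3 the untreated and siStag3 libraries came from experiment 5 and the siLuc library from experiment 1. Differences within Set 3 that involve siLuc therefore cannot be told apart from a difference between experiments. The set separated the libraries strongly, with 42.7% of genes past the threshold between Set 3 and Set 1, and the model therefore carried a term for it. Stag3 itself was at 22.5, 23.4 and 26.7 CPM in siLuc and at 13.5, 15.2 and 15.6 CPM in siStag3, so 61.2% of the control level remained. Summed markers of embryonic stem cells ranged from 4991 to 5510 CPM over all libraries, with all 10 genes of the list present. Of these, 2 genes, Tdgf1 and Utf1, were called higher in siStag3 than in untreated cells, where 1.07% of all genes were. Fibroblast markers summed to at most 5.58 CPM with 7 of 10 genes present.

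Dppa3 (ENSMUSG00000046323), also called Stella or PGC7, encodes a small protein that marks primordial germ cells, protects the maternal genome from demethylation after fertilisation and binds the DNA methylation cofactor UHRF1. Its level was 38.1, 43.5 and 50.4 CPM in the untreated libraries, 37.0, 34.7 and 32.3 CPM in siLuc, and 21.4, 26.2 and 24.95 CPM in siStag3, with the Set 3 library last in each group. The 3 groups did not overlap: every siStag3 library lay below every siLuc library, and every siLuc library below every untreated one. Means were 44.0 ± 6.16 CPM in untreated cells, 34.7 ± 2.35 CPM in siLuc and 24.2 ± 2.51 CPM in siStag3 (SD, n = 3). In these bulk samples, fewer cells carrying Dppa3 RNA and less Dppa3 RNA per cell cannot be told apart.

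Relative to siLuc, the fitted log2 fold change of Dppa3 in siStag3 was -0.52 (SE 0.103, 95% confidence interval -0.75 to -0.30), the difference for which the gene had been chosen. It was -0.60 within Set 1, -0.37 within Set 3 and -0.64 with a term for each set and experiment. Relative to untreated cells the log2 fold change was -0.86 (SE 0.102, interval -1.09 to -0.64), and 54.9% of the untreated level remained. The same difference was -0.78 in Set 1 and -1.01 in Set 3. Because the siStag3 libraries enter both differences, no independent test of Dppa3 can be taken from either of them. The control siRNA also stood below untreated cells, by a log2 fold change of -0.34 (SE 0.100, interval -0.56 to -0.12), which was -0.19 in Set 1 and -0.64 in Set 3. That value rests largely on Set 3, where siLuc was the lowest and untreated the highest library of its group. These 2 libraries came from different experiments. With a term for each set and experiment the log2 fold change of siLuc against untreated cells was -0.22. The siLuc libraries also entered the choice of Dppa3, so no independent test of it can be taken from this difference. Markers of other cell types were summed beside this gene. Mesoderm and primitive streak markers (8 of 10 genes present) summed to 11.5 to 13.5 CPM in untreated cells, 9.14 to 11.5 CPM in siLuc and 8.54 to 9.87 CPM in siStag3. Primitive endoderm markers (10 of 10 present) summed to 69.3 to 95.2 CPM in untreated cells, 60.9 to 75.6 CPM in siLuc and 60.6 to 76.0 CPM in siStag3, most of it from Lama1, while Gata4, Gata6 and Sox17 reached at most 0.412, 0.365 and 0.280 CPM. Markers of the two-cell-like state, in which 4 of 10 genes were present, summed to 0.997 to 2.25 CPM in untreated cells, 1.11 to 1.67 CPM in siLuc and 1.78 to 1.95 CPM in siStag3, and mast cell and blood markers (6 of 10 present) summed to 2.24 to 3.79 CPM over all libraries. Of these lists, edgeR called 1 gene in a comparison between groups, Brachyury (T). It was lower in siStag3 than in untreated cells, where 1.46% of all genes were called lower. The part of these markers in the Dppa3 difference was not tested.

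The Dppa3 transcript has a close copy elsewhere in the genome, the pseudogene Dppa3-ps, which matters for how reads are assigned. Dppa3 (833 bases in the GENCODE M21 annotation) shared 31.01% of its 31-base words with Dppa3-ps, which was not among the genes of the count table. Over 451 aligned bases of the coding sequence, 443 were identical (98.2%), with 8 substitutions and no gap. A stretch of 120 bases from the start of the coding sequence is shown to let the likeness be seen, with the substituted bases in capitals.
Dppa3: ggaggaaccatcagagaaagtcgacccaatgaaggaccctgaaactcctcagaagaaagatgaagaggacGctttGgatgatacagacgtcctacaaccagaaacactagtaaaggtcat
Dppa3-ps: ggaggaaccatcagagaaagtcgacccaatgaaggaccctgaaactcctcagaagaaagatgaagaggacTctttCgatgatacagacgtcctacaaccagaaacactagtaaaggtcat
Only 2 bases differed in this stretch, so short reads from it can match both sequences. The Dppa3 counts carry that uncertainty in every group, and whether it differed between groups was not tested. The remaining members were nearly free of shared words, at 0.95% for Prdm14, 0.23% for Prdm1 and 0 for Tfap2c, Nanos3 and Kit, apart from Dnd1 at 13.16%.

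Nanos3 (ENSMUSG00000056155) encodes a zinc-finger RNA-binding protein that keeps migrating primordial germ cells alive. It had the fewest counts of the 7 genes, 49 to 151 per library. Levels were 2.496, 2.81 and 3.27 CPM in untreated cells, 2.64, 2.26 and 1.70 CPM in siLuc, and 1.38, 1.58 and 1.98 CPM in siStag3. All 3 siStag3 libraries lay below all 3 untreated libraries, whereas siLuc overlapped both groups. With 49 counts, the lowest siStag3 library had an exact Poisson interval of 1.02 to 1.82 CPM, which covers counting error only.

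Against untreated cells Nanos3 fell by 0.81 on the log2 scale in siStag3 (SE 0.195, interval -1.23 to -0.39, adjusted p = 0.0452 by edgeR's quasi-likelihood test with Benjamini-Hochberg adjustment), to 57.5% of the untreated mean. The difference was -0.84 in Set 1 and -0.72 in Set 3, and it was lower in 3 of 3 libraries. This call was a narrow one: it was lost without the set term (adjusted p = 0.497) and in 7 of 9 fits that left out 1 library, over which the adjusted p ran from 0.0125 to 0.269. Of 10 alternatives that were not leave-one-out fits, 9 kept it. Their adjusted p ran from 0.0140 (edgeR with the GC correction) to 0.0499 (DESeq2), with 0.0219 for edgeR with a term for each set and experiment. Leaving out an untreated library gave 0.0640, 0.0964 and 0.262, leaving out a Set 1 siLuc library gave 0.0509 and 0.0567, and leaving out a Set 1 siStag3 library gave 0.269 and 0.134. Relative to siLuc the log2 fold change of Nanos3 in siStag3 was -0.43 (SE 0.204), with -0.73 in Set 1 and 0.22 in Set 3, so the sets disagreed in sign. The Set 3 value rests on 1 library per group. Their Poisson intervals overlapped, at 1.28 to 2.22 CPM in siLuc and 1.51 to 2.55 CPM in siStag3. The siLuc library of Set 3, at 1.70 CPM, was the lowest of its group. Between siLuc and untreated cells the log2 fold change was -0.37 (SE 0.188, adjusted p = 0.212 by edgeR).

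The 250 bases upstream of the Nanos3 start (RefSeq, GRCm38.p6, chr8:84176553-84176802, minus strand) are shown because Nanos3 passed the test in siStag3 against untreated cells and its start, unlike that of Dppa3, was in the promoter table. Capitals mark a word of the TFAP2 type, GCCNNNGGC.
Nanos3: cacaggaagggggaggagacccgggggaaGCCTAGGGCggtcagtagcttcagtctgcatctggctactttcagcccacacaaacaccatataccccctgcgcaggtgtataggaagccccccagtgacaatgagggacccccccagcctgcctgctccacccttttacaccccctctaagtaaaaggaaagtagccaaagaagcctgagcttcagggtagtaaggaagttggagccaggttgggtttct
This word, searched on both strands, begins 221 bases before the start and occurs in 13.73% of the 32851 mouse promoter windows of the same length. It was also present in the Kit window and absent from the Prdm1 window. The words GGTCTCTAA (a PRDM14 type, in 0.24% of windows), ATGCAAAT (octamer, 1.6%) and CTTTGAT (TCF and LEF type, 3.21%) had no match in the Nanos3 window. A match describes letters, not binding. Of the 7 genes, Kit, Nanos3 and Prdm1 were matched in the promoter table, and Dppa3, Prdm14, Tfap2c and Dnd1 were not.

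The transcription factors that specify germ cells are described next. Tfap2c (ENSMUSG00000028640) encodes AP2γ, which acts downstream of PRDM1 in germ cells and opens naive enhancers in stem cells. It was measured at 63.8, 64.1 and 66.6 CPM in untreated cells, 66.75, 63.4 and 67.1 CPM in siLuc and 55.8, 58.5 and 60.9 CPM in siStag3. The untreated and siLuc libraries were intermingled, and the 3 siStag3 libraries lay below all 6 of them, although siStag3 and siLuc overlapped when scaled by total counts alone. The size was small and did not pass the test: the log2 fold change of siStag3 against untreated cells was -0.15 (SE 0.0556, adjusted p = 0.181 by edgeR), and against siLuc it was -0.17 (SE 0.0557). Both sets gave the same sign against siLuc, -0.19 in Set 1 and -0.14 in Set 3. Between siLuc and untreated cells the log2 fold change was 0.02 (SE 0.0554, adjusted p = 0.843 by edgeR), and with scaling by total counts alone it was -0.03.

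Prdm14 (ENSMUSG00000042414) encodes a zinc-finger repressor that keeps FGF receptor genes and de novo DNA methyltransferases low in naive cells. Levels were 66.3, 60.7 and 62.0 CPM in untreated cells, 58.3, 55.6 and 54.9 CPM in siLuc and 59.0, 58.1 and 61.2 CPM in siStag3. The 3 siLuc libraries lay below the 3 untreated libraries, while siStag3 overlapped both groups. None of these differences passed the test, at a log2 fold change of -0.16 for siLuc against untreated cells (SE 0.0601, adjusted p = 0.109 by edgeR) and -0.08 for siStag3 against untreated cells (SE 0.0601, adjusted p = 0.494). In siStag3 relative to siLuc it was 0.08 (SE 0.0604).

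Prdm1 (ENSMUSG00000038151) encodes BLIMP1, the repressor that starts the germ cell programme and is otherwise known from plasma cells and T cells. The untreated libraries had 21.6, 22.8 and 28.6 CPM, the siLuc libraries 26.6, 26.1 and 38.2 CPM and the siStag3 libraries 23.3, 25.7 and 30.03 CPM. In each group the Set 3 library was the highest, and all 3 groups overlapped. Prdm1 rose in siLuc against untreated cells by a log2 fold change of 0.31 (SE 0.0733, interval 0.15 to 0.47, adjusted p = 0.0345 by edgeR), with 0.25 in Set 1 and 0.42 in Set 3. The rise did not hold without the set term (adjusted p = 0.595), with total count scaling (0.0525), with Set 1 alone (0.110) or with a term for each set and experiment (0.247). It was also lost in 6 of 9 fits that left out 1 library, which were those without any 1 of the 3 untreated libraries, without the siLuc libraries of experiment 1 in Set 1 or Set 3, or without the siStag3 library of experiment 1 in Set 1 (highest adjusted p = 0.188, without the siLuc library of Set 3). In siStag3 the log2 fold change was 0.12 against untreated cells (SE 0.0737, adjusted p = 0.424 by edgeR) and -0.19 against siLuc (SE 0.0735).

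Dnd1 (ENSMUSG00000044595) encodes an RNA-binding protein that works with NANOS proteins on messenger RNA in germ cells. It was at 6.59, 6.59 and 10.3 CPM in untreated cells, 4.84, 5.88 and 8.38 CPM in siLuc and 5.17, 5.51 and 9.67 CPM in siStag3. The Set 3 library was the highest in each group, and every group overlapped the others. Against untreated cells the Dnd1 log2 fold change was -0.30 in siLuc (SE 0.106, adjusted p = 0.104 by edgeR) and -0.23 in siStag3 (SE 0.106, adjusted p = 0.298). Relative to siLuc it was 0.07 in siStag3 (SE 0.109), a sign that turned with Set 1 alone (-0.01). Dnd1 shared 7.6% of its 31-base words with Wdr55, a gene that overlaps it and was measured at 48.5 ± 0.627 CPM in untreated cells, 47.4 ± 2.21 CPM in siLuc and 45.3 ± 0.184 CPM in siStag3 (SD, n = 3). Whether the counting used strand was not given in the sources used here, so reads of the shared stretch may count for both genes.

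Kit (ENSMUSG00000005672) encodes the receptor for stem cell factor, on which migrating germ cells depend, and it had the most counts of the 7 genes. Its level was 331, 299 and 297 CPM in untreated cells, 307, 330 and 297 CPM in siLuc and 329, 306 and 291 CPM in siStag3. The groups overlapped fully, with means of 309 ± 18.9, 311 ± 16.9 and 309 ± 18.96 CPM (SD, n = 3). The log2 fold change of siStag3 against untreated cells was 0.00 (interval -0.13 to 0.12, adjusted p = 0.995 by edgeR), and that of siLuc against untreated cells was 0.01 (interval -0.12 to 0.13, adjusted p = 0.938). These intervals bound the size of any difference in Kit that the 9 libraries allow.

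**Figure D1:**
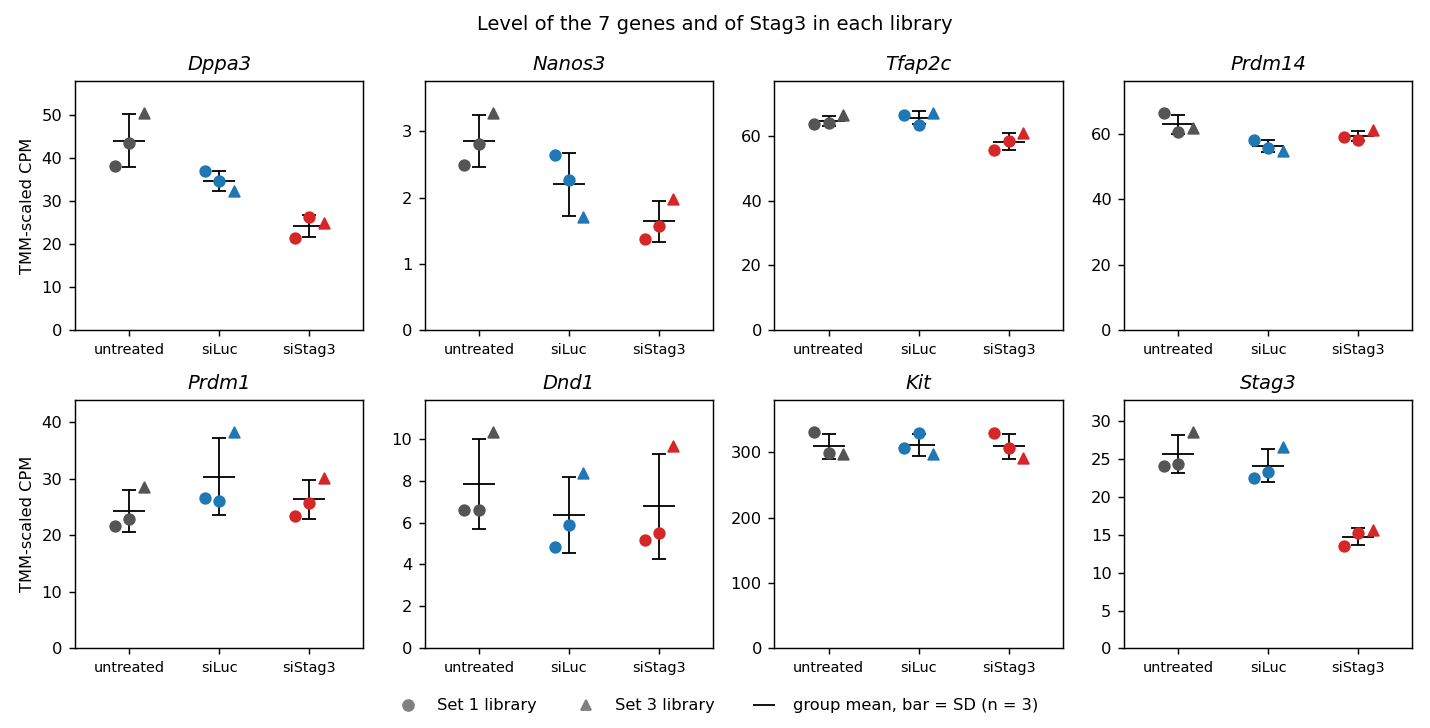
TMM-scaled CPM (vertical axis, from 0) of each of the 7 genes and of Stag3 in the 9 libraries, with circles for Set 1, triangles for Set 3, a line at the group mean and a bar of 1 SD (n = 3). Dppa3 steps from 44.0 to 34.7 to 24.2 CPM over untreated, siLuc and siStag3 with no overlap, while Kit stays near 309 CPM and Dnd1 and Prdm1 separate by set.

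Per transcript length, the 7 genes formed 3 tiers in untreated cells. Kit (59.0 ± 3.61 CPM per kb) and Dppa3 (52.8 ± 7.39 CPM per kb) were highest, and their libraries overlapped. Prdm14 (24.6 ± 1.14 CPM per kb) and Tfap2c (21.7 ± 0.519 CPM per kb) followed without overlapping each other. Dnd1 (5.40 ± 1.48 CPM per kb), Prdm1 (4.60 ± 0.706 CPM per kb) and Nanos3 (3.92 ± 0.535 CPM per kb) formed the lowest tier, in which each neighbouring pair overlapped. These SDs are over 3 libraries, and the order depends on the 1 annotated transcript whose length was used for each gene. Dppa3 stood above 90.4% of 14226 genes in untreated cells, above 87.5% in siLuc and above 82.2% in siStag3. Its level no longer overlapped that of Kit in either siRNA group. In siLuc it was 41.6 ± 2.82 CPM per kb against 59.3 ± 3.22 CPM per kb for Kit. In siStag3 it was 29.01 ± 3.01 CPM per kb against 58.9 ± 3.62 CPM per kb for Kit. There the lowest Dppa3 library, at 25.6 CPM per kb, came near the highest of Prdm14, at 23.9 CPM per kb.

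Counted over the 7 genes, the siStag3 group against untreated cells had 2 genes past the threshold in the lower direction, Dppa3 and Nanos3, against 1.46% of all genes tested, and none in the higher direction (1.07% of all genes). In either direction 2.53% of all genes were called. Dppa3 is in that count although it was chosen with the siStag3 libraries in view, and without the set term its adjusted p in edgeR was 0.0604. DESeq2 called the same number of the 7 genes and 3.28% of all genes. The median log2 fold change over the 7 genes was -0.15, beside -0.01 over all genes tested. For siLuc against untreated cells, 1 gene passed in the higher direction, Prdm1, against 1.65% of all genes, and none in the lower direction, against 2.55% (4.2% in either direction). At an unadjusted p under 0.05 there were 3 genes lower, Dppa3, Prdm14 and Dnd1, and 1 higher, Prdm1. In either direction 27.8% of all genes had such a p. DESeq2 called 2 of the 7, and 11.6% of all genes, in either direction. Dppa3 is in these counts although the siLuc libraries entered its choice. The 2 comparisons share the untreated libraries. For siStag3 against siLuc, the comparison that singled out Dppa3, edgeR called 0 of 7, with 0.0281% of all genes called, 3 genes at an unadjusted p under 0.05 (7.88% of all genes) and 1 gene (Dppa3) called by DESeq2, which called 0.172% of all genes. The calls include Dppa3, for which this difference was the ground of selection, and nothing is read from these counts.

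Non-overlap of the 3 libraries on each side gives the same comparisons without a model. Against untreated cells, 3 of the 7 genes in siStag3 lay wholly lower, Dppa3, Nanos3 and Tfap2c, and 5.38% of all genes did so. In siLuc 2 of 7 lay wholly lower than untreated, Dppa3 and Prdm14, where 10.3% of all genes did. Dppa3 is in both counts although the siStag3 and siLuc libraries entered its choice. No member lay wholly higher in siStag3 (4.63% of all genes) or in siLuc (9.59%) than in untreated cells. Against siLuc, the comparison on which Dppa3 was chosen, 2 of 7 lay wholly lower in siStag3 (1 of 7 with scaling by total counts alone) and 3.41% of all genes did, and nothing is read from that count.

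**Figure D2:**
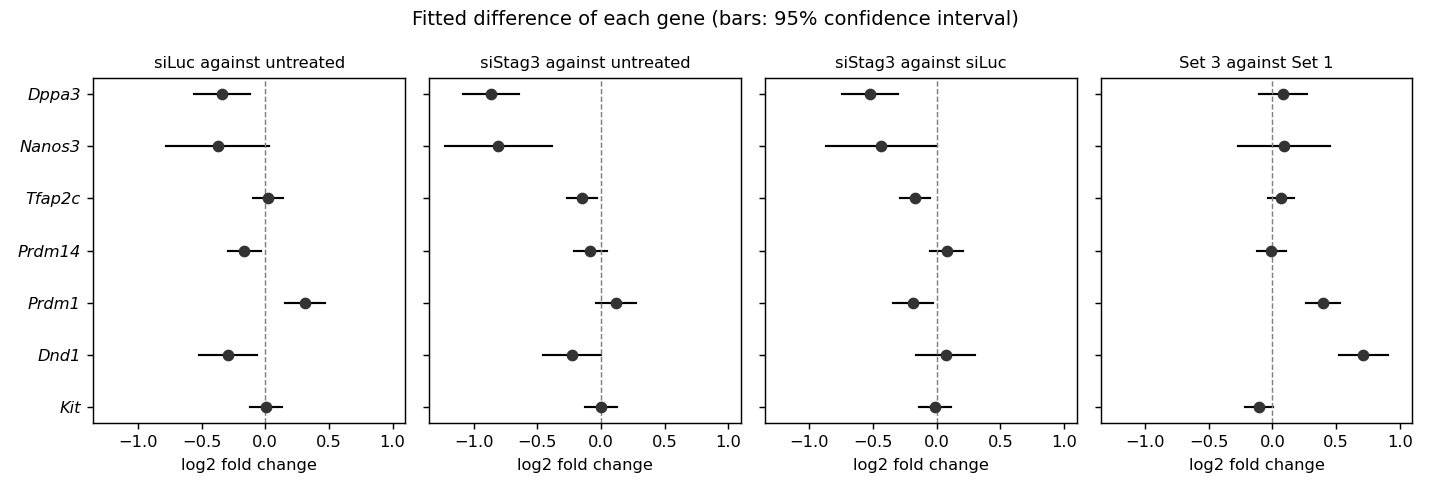
Fitted log2 fold change (horizontal axis) of each gene in the 4 comparisons, with 95% confidence intervals as bars and a dashed line at 0. Dppa3 and Nanos3 lie at -0.86 and -0.81 for siStag3 against untreated cells, Kit lies within 0.01 of 0 in each group comparison, and the set moves Dnd1 (0.71) and Prdm1 (0.40) most.

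The difference between the sets was not a condition in choosing the genes, and it was tested for all of them. Earlier results of these data were known at that choice. In Set 3 relative to Set 1, Dnd1 rose by a log2 fold change of 0.71 (SE 0.0895, adjusted p = 5.94e-05 by edgeR) and Prdm1 by 0.40 (SE 0.0625, adjusted p = 0.000272), 2 of 7 genes where 21.4% of all genes tested were called higher. Both were highest in the Set 3 library of each of the 3 groups. The other 5 genes did not pass, with Dppa3 at 0.08 (SE 0.0877, adjusted p = 0.463 by edgeR), Nanos3 at 0.09 (adjusted p = 0.701), Tfap2c at 0.06 (adjusted p = 0.292), Prdm14 at -0.01 (adjusted p = 0.915) and Kit at -0.10 (adjusted p = 0.117). What distinguishes the sets was not given in the sources used here.

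Dppa3 and Nanos3 varied together across the 9 libraries, the group differences included. After the mean of its set was subtracted from each log2 CPM value, Pearson's r between them was 0.92 over the 9 libraries, higher than for 99.8% of the 11198 genes examined, and it was also 0.92 without that subtraction. Tfap2c followed at 0.84, then Dnd1 at 0.51 and Prdm14 at 0.29, while Kit (-0.17) and Prdm1 (-0.22) were weakly negative. The points share the 3 groups and the library scaling, and the group differences given above contribute to them. They include the siStag3 and siLuc libraries on which Dppa3 was chosen, so these values are a description only. Within Set 3 the 2 genes parted: Nanos3 was lowest in siLuc (1.70 CPM) and Dppa3 in siStag3 (24.95 CPM). That parting rests on 1 library per group, and the Poisson intervals of Nanos3 in siLuc and siStag3 overlapped there.

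**Figure D3:**
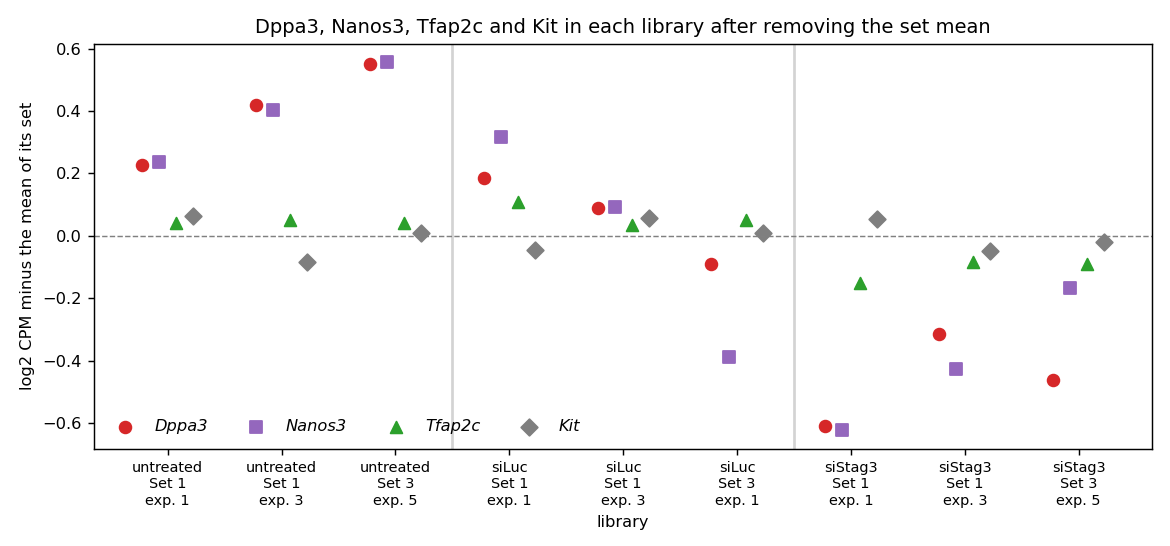
Log2 CPM minus the mean of the same set (vertical axis) for Dppa3, Nanos3, Tfap2c and Kit in each of the 9 libraries (horizontal axis), with group borders as grey lines. Dppa3 and Nanos3 are above 0 in the 3 untreated libraries and below 0 in the 3 siStag3 libraries; Tfap2c moves the same way over a narrower range and Kit shows no such order.

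By the same measure, the 5 genes whose pattern was most like that of Dppa3 were Arhgap9 (r = 0.98), S1pr1 (0.97), Tspan2 (0.96), Usp29 (0.96) and Dgka (0.96). They were picked from 11198 genes for this likeness over the same 9 libraries. Their order over the groups, given below, follows from that pick and is a description only. S1pr1 encodes a sphingosine-1-phosphate receptor, Tspan2 a tetraspanin, Usp29 a ubiquitin-specific protease from an imprinted domain and Dgka a diacylglycerol kinase. Arhgap9 went from 5.499 CPM in untreated cells to 4.73 CPM in siLuc and 3.84 CPM in siStag3, and S1pr1 from 9.18 to 7.70 and 6.25 CPM. Tspan2 went from 10.4 to 8.999 and 6.39 CPM, Usp29 from 12.9 to 11.1 and 9.71 CPM, and Dgka from 47.0 to 44.3 and 39.9 CPM. Without subtraction of the set mean the correlation stayed at 0.95 for Arhgap9 and 0.90 for S1pr1 but was 0.62 for Tspan2, 0.55 for Usp29 and 0.70 for Dgka.

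Genes around the 7 factors were examined by lists of known function. Among 19 tested genes of germ cell induction, 2 rose and 1 fell in siLuc against untreated cells, and 1 rose and 1 fell in siStag3, with list medians of 0.03 and 0.04. Over all genes, 4.2% and 2.53% were called in these comparisons. Otx2, a factor of formative epiblast that restrains entry into the germ line, rose in both, by a log2 fold change of 0.48 in siLuc (SE 0.0857, adjusted p = 0.00982 by edgeR) and 0.51 in siStag3 (SE 0.0857, adjusted p = 0.00638). Its level was 15.3 ± 6.19 CPM in untreated cells, 21.9 ± 11.02 CPM in siLuc and 22.2 ± 10.8 CPM in siStag3 (SD, n = 3), and between the siRNA groups its log2 fold change was 0.03 (SE 0.0844). Brachyury (T), a mesoderm factor also switched on during germ cell induction, fell in siStag3 against untreated cells by 1.06 on the log2 scale (SE 0.226, adjusted p = 0.0294 by edgeR), from 4.81 ± 1.24 to 2.35 ± 0.919 CPM. In siLuc its log2 fold change was -0.77 (adjusted p = 0.0651 by edgeR). Lin28a, an RNA-binding protein that blocks let-7 processing, rose in siLuc against untreated cells by 0.22 (adjusted p = 0.0343 by edgeR), and Id3, a target of BMP signalling, fell by 0.42 (adjusted p = 0.0344). Bmp4 itself was at 3.94 CPM in untreated cells, 3.86 CPM in siLuc and 3.38 CPM in siStag3, and no comparison of it passed. The counts of called genes in this list depended on the fit. In siLuc against untreated cells DESeq2 called 7 of the 19, where it called 11.6% of all genes. With only the 6 libraries compared, edgeR called 6 of the 19 and 1801 genes over all. No gene of the list passed without the set term in either comparison with untreated cells. None passed in siLuc with a term for each set and experiment or with Set 1 alone. None passed in either comparison without the untreated library of Set 3, in siLuc without its experiment 1 library of either set, or in siStag3 without its experiment 1 library. Without the siStag3 library of Set 3 the counts were 8 in siLuc and 4 in siStag3, where 2458 and 1591 of 14428 genes were called. Between the siRNA groups edgeR called 0 of the 19, but 1 with the GC correction, which called 67 genes over all. There were 2 of the 19 at an unadjusted p under 0.05 (7.88% of all genes), and DESeq2 called 0. Lin28a (log2 fold change -0.23, adjusted p = 0.228 by edgeR) and Id3 (0.35, adjusted p = 0.394) had the smallest p.

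Later germ cell genes, which act in meiosis and piRNA defence, also had a pair of opposite movers. Stra8, the retinoic acid target that gates meiosis, was at 15.3 ± 1.43 CPM in untreated cells, 10.3 ± 2.38 CPM in siLuc and 8.80 ± 1.60 CPM in siStag3 (SD, n = 3). It fell by 0.60 on the log2 scale in siLuc (SE 0.111, adjusted p = 0.0118 by edgeR) and by 0.82 in siStag3 (SE 0.112, adjusted p = 0.00156) against untreated cells. Ddx4, the germ cell RNA helicase VASA, rose by a log2 fold change of 0.75 in siLuc (SE 0.141, adjusted p = 0.0128 by edgeR) and by 0.58 in siStag3 (SE 0.142, adjusted p = 0.0466), from 2.70 ± 0.428 CPM to 4.58 ± 0.896 and 4.12 ± 1.26 CPM. The other 12 of 14 tested genes passed in neither comparison. Over all genes, 4.2% were called in siLuc and 2.53% in siStag3 against untreated cells. With a term for each set and experiment no gene of this list passed in siLuc and a single gene passed in siStag3, where DESeq2 also called only 1. Without the siStag3 library of Set 3 the count was 4 in each, where 2458 and 1591 of 14428 genes were called. Without the set term no gene of this list passed in either comparison, without the siLuc library of Set 3 none passed in siLuc, and without the untreated library of Set 3 a single gene passed in each. In siStag3 against untreated cells a single gene also passed without either untreated, either siLuc or either siStag3 library of Set 1. Against untreated cells the list median was 0.30 in siLuc and 0.01 in siStag3. Between the siRNA groups, all 14 had a negative log2 fold change, with a median of -0.21, beside -0.005 over all genes tested. In that comparison edgeR called 0 of the 14, 1 was past an unadjusted p of 0.05 (7.88% of all genes) and DESeq2 called 0. Dmrt1 (log2 fold change -0.20, adjusted p = 0.513 by edgeR) and Piwil2 (-0.37, adjusted p = 0.641) had the smallest p. Between the sets, 11 of the 14 were called lower in Set 3, where 21.2% of all genes were, and the list median was -0.58.

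The 5 remaining lists held 77 tested genes, and edgeR called none of them in any comparison between groups. At an unadjusted p under 0.05 there were 22 of them in siLuc against untreated cells (8 lower, 14 higher), where 27.8% of all genes had such a p. There were 6 in siStag3 against untreated cells (3 lower, 3 higher), where 17% of all genes did, and 9 in siStag3 against siLuc (6 lower, 3 higher), where 7.88% did. DESeq2 called 2 of them, both partner genes, in siLuc against untreated cells (11.6% of all genes) and 0 elsewhere. The absence of calls depended on the fit. Without the siStag3 library of Set 3, siLuc against untreated cells gave 5 early markers, 5 partners, 3 pluripotency genes, 1 gene of KIT signalling and 1 gene repressed by PRDM14, and siStag3 against untreated cells gave 1 early marker, 3 partners and 1 gene of KIT signalling. Over all genes, that fit called 2458 of 14428 in siLuc and 1591 in siStag3 against untreated cells. With only the 6 libraries compared, siLuc against untreated cells gave 2 early markers, 3 partners, 1 pluripotency gene and 1 gene of KIT signalling. Over all genes it gave 1801 calls. Total count scaling, the GC correction and Set 1 alone gave at most 1 gene per list. Among 20 partners of the factors, Uhrf1, which recruits the maintenance DNA methyltransferase and is bound by DPPA3, was at 820 ± 40.2 CPM in untreated cells, 769 ± 58.3 CPM in siLuc and 845 ± 36.8 CPM in siStag3. Cbfa2t2, the corepressor that binds PRDM14, stood at 164, 164 and 160 CPM in the same order. Prmt5, the arginine methyltransferase partner of PRDM1, stood at 196, 196 and 202 CPM. Pum2 and Eed had the smallest p of the partners in siLuc against untreated cells (log2 fold change 0.25 and 0.17, adjusted p = 0.0738 and 0.0993 by edgeR), and also in siStag3 against untreated cells (0.18 and 0.17, adjusted p = 0.270 and 0.147). Suz12, a subunit of the Polycomb repressive complex, had the smallest p of the list in siStag3 against siLuc (-0.26, adjusted p = 0.446), followed by Uhrf1 (0.14, adjusted p = 0.546).

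Targets of the factors and the KIT pathway were next. Of 6 tested genes that PRDM14 represses, Dnmt3l and Fgfr2 had the smallest p in siStag3 against siLuc, at a log2 fold change of -0.34 each (adjusted p = 0.394 by edgeR for both). Against untreated cells the smallest p belonged to Fgfr2 (0.29, adjusted p = 0.0903) and Fgf5 (1.03, adjusted p = 0.185) in siLuc, and to Dnmt3l (-0.27, adjusted p = 0.165) and Fgf5 (0.94, adjusted p = 0.348) in siStag3. Of 16 genes of KIT signalling, the ligand gene Kitl was at 2.23 ± 0.345 CPM in untreated cells, 2.94 ± 0.374 CPM in siLuc and 2.37 ± 0.376 CPM in siStag3, with a log2 fold change of 0.40 in siLuc against untreated cells (adjusted p = 0.151 by edgeR). The kinase gene Src was nearest to the threshold in both comparisons with untreated cells (-0.21 in siLuc, adjusted p = 0.141, and -0.18 in siStag3, adjusted p = 0.325), followed in siStag3 by Cblb (-0.12, adjusted p = 0.418). Cblb (-0.15, adjusted p = 0.643) and Sos1 (-0.12, adjusted p = 0.661) had the smallest p against siLuc. Of 23 early germ cell markers, Tfap2a, which encodes a relative of AP2γ, came nearest to the threshold, at 6.03 ± 0.445 CPM in untreated cells, 4.71 ± 0.165 CPM in siLuc and 4.44 ± 0.526 CPM in siStag3 (log2 fold change -0.45 for siStag3 against untreated cells, adjusted p = 0.0584 by edgeR, and -0.36 for siLuc, adjusted p = 0.0753). Itgb3 (-0.22, adjusted p = 0.285) followed in siStag3, and Smc1b, a meiotic cohesin gene (0.29, adjusted p = 0.0674), stood first in siLuc. Dppa5a (0.19, adjusted p = 0.455) and Rhox9 (-0.62, adjusted p = 0.477) did so in siStag3 against siLuc. Of 12 pluripotency genes shared with germ cells, Tdh, which encodes threonine dehydrogenase, had the smallest p in siStag3 against siLuc (log2 fold change 0.13, adjusted p = 0.569 by edgeR) and in siLuc against untreated cells (-0.16, adjusted p = 0.0863). Its level was 925 ± 16.5 CPM in untreated cells, 825 ± 36.3 CPM in siLuc and 905 ± 29.1 CPM in siStag3 (SD, n = 3). Pou5f1, the gene of OCT4, came next against siLuc, at 806 ± 5.23 CPM in siLuc and 876 ± 71.7 CPM in siStag3 (0.12, adjusted p = 0.637), and Sox2 came next in siLuc against untreated cells (0.20, adjusted p = 0.0980). In siStag3 against untreated cells Zfp42 (0.16, adjusted p = 0.147) and Tbx3 (-0.10, adjusted p = 0.427) had the smallest p.

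**Figure D4:**
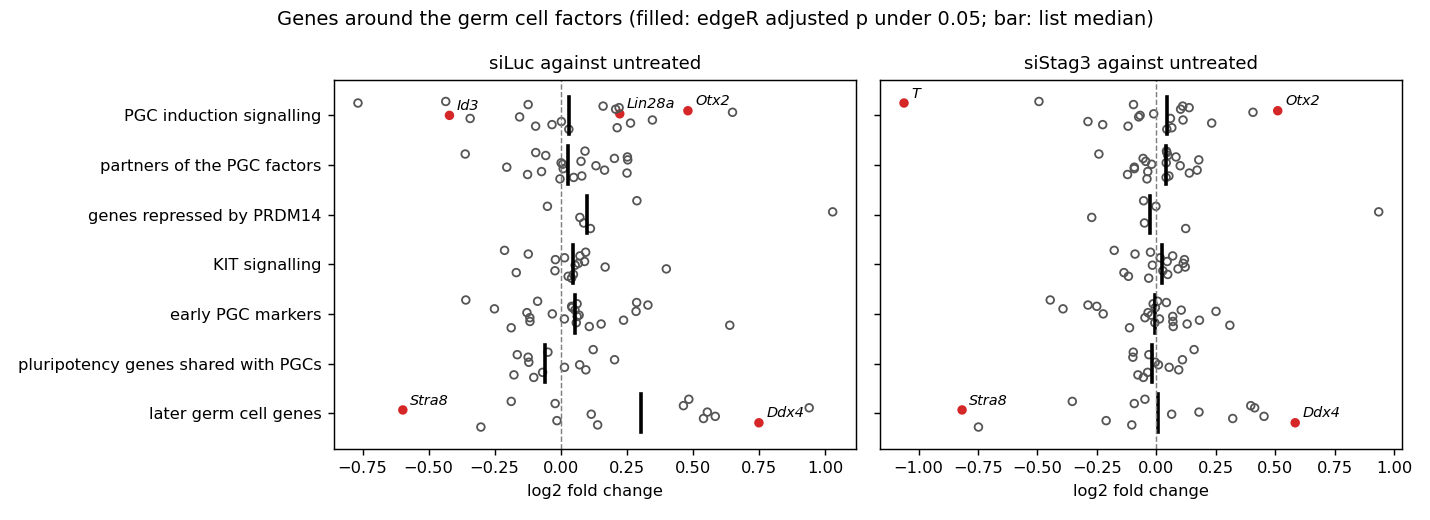
Log2 fold change (horizontal axis) of each tested gene in the 7 lists for siLuc and for siStag3 against untreated cells, with red filled points for an edgeR adjusted p under 0.05 and black bars for list medians. Otx2 and Ddx4 lie to the right and Stra8 to the left in both panels, and the 5 middle lists hold no filled point.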

How the data were processed

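RNA-seq read counts per gene were deposited by the authors as 1 table of whole-number counts, unnormalised. Per the submitters' processing notes, FastQC, Salmon and DESeq2 were used with build GRCm39; their roles, versions and strand setting are not given in the sources used here. Such counts may be rounded estimates, and splitting of reads between Dppa3 and its pseudogene depends on that step. The smallest row sum was 9. Libraries were assigned to groups by column names, and no column was left out. Counts were analysed in R 4.3.3 with edgeR 4.0.16: filterByExpr, TMM, a quasi-likelihood fit on all 9 libraries with terms for group and set, and Benjamini-Hochberg adjustment over 14246 genes (threshold 0.05). DESeq2 1.42.0 was an alternative. The fit was tested on simulated data. The 7 genes, the lists and the set term were chosen with earlier results of these data known. Named list genes were those past the threshold (at most 4 per list and comparison), otherwise the 2 with the smallest p; Otx2, Cbfa2t2, Uhrf1, Prmt5, Kitl and Bmp4 were named whatever they showed. Lengths and shared words came from GENCODE M21 (GRCm38), so no gene coordinates are given. With a term for the set the biological coefficient of variation was 7.62%, and without it 14.6%.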

Additional observations from a re-analysis of the deposited data

How the results depend on the processing

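The number of genes called depended on the model. For siStag3 against siLuc it was 4, but 0 without the set term, 22 with DESeq2, 1 with only the 6 libraries compared, 67 with a GC correction beside the set term, 2 with a term for each set and experiment, and 0 to 4 with any 1 library removed. For siLuc against untreated cells it was 598, but 1 without the set term, 1296 with DESeq2, 1801 with only the 6 libraries, 298 with Set 1 alone, 992 with the GC correction, 86 with set and experiment, and 111 to 2458 leaving out 1 library. For siStag3 against untreated cells it was 361, but 2 without the set term, 949 with Set 1 alone, 966 with the GC correction, and 78 to 1591 leaving out 1 library. The cause was not tested. Between the sets 6076 genes were called, and 4162 to 6355 leaving out 1 library.

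Dppa3, whose difference chose it, had a log2 fold change of -0.95 to -0.74 in siStag3 against untreated cells when 1 library was left out. Small differences changed sign. Dnd1 in siStag3 against siLuc was -0.010 with Set 1 alone and -0.0057 with the GC correction (-0.0061 to 0.16 leaving out 1 library), and Kit 0.010 with the GC correction (-0.040 to 0.021). Tfap2c in siLuc against untreated cells was -0.031 with total counts (-0.0029 to 0.039), and Kit -0.043 with total counts and -0.011 with the GC correction (-0.033 to 0.046). Kit in siStag3 against untreated cells was 0.0042 with DESeq2 size factors, 0.00084 with no filter, 0.0040 with DESeq2, 0.0039 with the 6 libraries and 0.015 with Set 1 alone (-0.043 to 0.039). Between sets, Prdm14 was 0.045 with total counts (-0.041 to 0.019), Nanos3 -0.075 with the GC correction (-0.059 to 0.36), and Dppa3 ranged from -0.039 to 0.20 leaving out 1 library. No paired analysis was possible by replicate number, because the column names hold no replicate number. They do give a set and an experiment. All groups share experiments 1 and 3 of Set 1, and untreated and siStag3 also share experiment 5 of Set 3. The fit with a term for each set and experiment, given above, therefore pairs every siStag3 library with an untreated one by these labels. The siLuc library of Set 3 then has a term to itself. In siStag3 against untreated cells this fit left Dppa3 at a log2 fold change of -0.86. Nanos3 was at -0.80 and stayed past the threshold (adjusted p = 0.0219 by edgeR). The same fit ended the Prdm1 rise and the siLuc calls of the induction and later germ cell lists. Nanos3, at 49 to 151 counts, is the member whose depth limits precision most.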
